A study of Mus musculus with 6 samples.

Results

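The integrin subunit genes and laminin chain genes of the mouse were followed in bone marrow-derived macrophages (BMDMs) from co-cultures with ID8, a cancer cell line from mouse ovarian surface epithelium. They were taken by name as the protein-coding genes whose symbol begins with Itga or Itgb, or with Lama, Lamb or Lamc, followed by a subunit number or letter. The rule found 38 of the 54532 genes listed, of which 22046 were protein-coding. No measured value entered the rule, but the genes to follow were chosen with earlier results of these data known. There were 18 alpha and 9 beta integrin subunits, and 5 alpha, 3 beta and 3 gamma laminin chains. Poly-T selected RNA was sequenced from 6 libraries. Before co-culture the ID8 cells had received 40 µM cisplatin, a DNA-crosslinking platinum compound, for 3 of these libraries and phosphate-buffered saline (PBS) for the other 3. The groups are called cisplatin and PBS here. The study's methods took the marrow from C57BL/6 mice of several weeks of age and call the cells bone marrow-derived monocytes, grown in RPMI medium with serum. They name no growth factor and do not say how the marrow cells were parted from the ID8 cells before RNA was taken, and nothing states that the replicates came from separate mice or cultures.

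Integrins are the cell surface receptors that tie a cell to the matrix around it or to another cell, and each is a pair of an alpha and a beta subunit. The beta-2 integrins are restricted to leukocytes, and the pair of Itgam and Itgb2 (CD11b/CD18, Mac-1) is a standard surface marker of monocytes, macrophages and neutrophils. Other pairs read the Arg-Gly-Asp motif of fibronectin and vitronectin, and a further group binds laminins, which are cross-shaped trimers of an alpha, a beta and a gamma chain and form the sheet of the basement membrane under epithelial and mesothelial cells.

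The sequence before the transcription start is given for 4 genes that mark the ends of the range: the pair of the largest rises and the pair of the largest falls on the log2(FPKM + 1) scale among the genes called changed whose RefSeq start lies within 10 bases of the 5′ end in the deposited table. Each is the 250 bases before the start on the gene's own strand, 5′ to 3′, from RefSeq on GRCm38.p6. Capitals mark every GAGGAA or its reverse complement TTCCTC, the core bound by the myeloid factor PU.1, and every GGGCGG or its reverse complement CCGCCC, the GC box bound by the Sp1 family. Itgb2l is at chr16:96443615-96443864 (minus strand), Itgam at chr7:128062390-128062639 (plus strand), Lama5 at chr2:180225860-180226109 (minus strand) and Itgb5 at chr16:33829415-33829664 (plus strand).
Itgb2l: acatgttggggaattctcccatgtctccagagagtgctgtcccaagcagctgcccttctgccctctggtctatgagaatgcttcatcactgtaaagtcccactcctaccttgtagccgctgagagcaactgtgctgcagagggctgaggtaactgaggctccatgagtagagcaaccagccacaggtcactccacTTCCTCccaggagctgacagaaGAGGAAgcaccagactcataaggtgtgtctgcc
Itgam: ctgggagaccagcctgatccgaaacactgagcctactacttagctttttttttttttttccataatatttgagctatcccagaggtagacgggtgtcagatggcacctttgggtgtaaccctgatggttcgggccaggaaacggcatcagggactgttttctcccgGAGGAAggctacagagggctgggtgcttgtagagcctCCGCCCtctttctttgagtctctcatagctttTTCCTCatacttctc
Lama5: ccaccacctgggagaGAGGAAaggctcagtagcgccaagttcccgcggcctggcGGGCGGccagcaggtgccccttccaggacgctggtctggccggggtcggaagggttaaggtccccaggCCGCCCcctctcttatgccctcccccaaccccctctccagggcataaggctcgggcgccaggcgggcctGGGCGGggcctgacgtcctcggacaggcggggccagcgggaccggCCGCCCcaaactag
Itgb5: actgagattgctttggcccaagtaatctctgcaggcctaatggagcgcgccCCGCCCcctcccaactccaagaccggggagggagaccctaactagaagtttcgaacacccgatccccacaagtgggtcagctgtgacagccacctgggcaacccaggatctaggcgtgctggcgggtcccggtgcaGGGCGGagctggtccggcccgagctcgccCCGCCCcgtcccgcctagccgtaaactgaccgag

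The PU.1 core occurred 2 times before Itgb2l and 2 times before Itgam, 1 time before Lama5 and 0 times before Itgb5. The GC box occurred 0, 1, 4 and 3 times in the same order. RefSeq promoters were matched by symbol for 24 of the 38 genes. The table has none for Itga6, Itga7, Itgad, Itgae, Itgal, Itgb2, Itgb3, Itgb4, Lama1, Lama3, Lama4, Lamc1 and Lamc3, among others. Among the matched genes, the PU.1 core was found in 4 of 5 that rose (Lamb3 among them, whose RefSeq start lies far from the 5′ end in the table), 4 of 8 that fell, 2 of 5 that were tested and not called and 2 of 6 that were not tested. It was found in 23.3% of all 32851 promoters of this length. The RefSeq starts of Itga9 (not called, without the core) and Lama2 (not tested, with the core) also lie far from the table's 5′ end, by 105002 and 2816 bases. The GC box was found in 2 of 5 that rose, 4 of 8 that fell, 2 of 5 that were tested and not called and 0 of 6 that were not tested, and in 32.7% of all promoters. Of all promoters, 0.0852% held a PU.1 core overlapping a GC box. These are letter matches and say nothing of binding.

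Between 15776238 and 17924686 reads per library could be recovered from the deposited values, which are FPKM, that is, fragments scaled by gene length and by a read total of the library. The total behind the values was 97.4% to 98.7% of the recovered reads in the PBS libraries. In the cisplatin libraries it was 103.7% to 104.1%. Pearson's r on log2(FPKM + 1) was 0.984 to 0.989 within groups over the 13441 genes tested, and 0.871 to 0.877 between groups. The label BMDM was checked against marker lists. All 10 macrophage markers were detected, with a summed level of 1801 to 1823 FPKM in the PBS libraries and 4485 to 4668 FPKM in the cisplatin libraries. Most of that sum was Lyz2, with means of 1161 FPKM with PBS and 3459 FPKM with cisplatin. Transcripts that macrophages are not known for were also present. The ID8 and mesothelial or epithelial list, which holds keratins, summed to 977 to 1051 FPKM with PBS and 169.9 to 185 FPKM with cisplatin. The B cell genes Cd79a and Ms4a1 had group means of 15.7 to 63.9 FPKM with PBS and 48.96 to 147 FPKM with cisplatin, and the T cell genes Cd3e, Cd3g and Cd4 stayed below 1 FPKM in their group means, while Cd8a had means of 1.68 and 2.53 FPKM. The neutrophil list summed to 4567 to 4710 FPKM with PBS and 8020 to 8294 FPKM with cisplatin. Most of that sum came from S100a8 and S100a9, neither of which was called. Their means were 1423 and 3105 FPKM with PBS and 2581 and 5233 FPKM with cisplatin. Ly6g of the same list had means of 2.81 FPKM with PBS and 3.15 FPKM with cisplatin. In bulk RNA, fewer cells of a type and less RNA per cell cannot be told apart, and every level below is that of the whole mixture.

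The integrin and laminin transcripts moved in both directions when the cisplatin group was set against the PBS group. The leukocyte subunits Itgam, Itga4 and Itgb2l, the platelet subunit Itga2b and the laminin chain Lamb3 rose. The other 5 tested laminin chains fell, as did the laminin receptor subunits Itga3 and Itga6, the alpha-v subunit Itgav with its partners Itgb3, Itgb5 and Itgb8, and the collagen receptor subunit Itga10. A gene was tested if it reached 1 FPKM in at least 3 of the 6 libraries, and called if limma's Benjamini-Hochberg adjusted p was under 0.05 and the log2 fold change at least 1 in size on the log2(FPKM + 1) scale. Of the 38 genes 26 were tested. In the fit over all 13441 genes, 5 of the 26 were called higher, where 4.67% of all tested genes were, and 12 were called lower, where 11.3% of all tested genes were, while 9 were not called. The median log2 fold change of the 26 was -0.74, against -0.0011 over all tested genes. All 26 had an adjusted p under 0.05, as did 68% of all tested genes. By that alone 10 of the 26 were higher, where 32.9% of all tested genes were, and 16 were lower, where 35.1% were. The groups did not overlap in any of the 26, which held for 72.4% of all tested genes. For 4 of the 26, named below, the filter itself fixed this.

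By class, 3 of 12 tested alpha subunits rose and 4 fell, 1 of 8 tested beta subunits rose and 3 fell, and 1 of 6 tested laminin chains rose and 5 fell. The class medians were -0.15, -0.29 and -2.13 on the log2 scale. Of the tested genes 22 had at least 1 FPKM in all 6 libraries, and 5 of these rose and 10 fell. The share of all genes called under that stricter condition was not taken. The other 4 (Itga7, Itga9, Itga10 and Itgb8) passed through their higher group alone. Their lack of overlap was therefore fixed by the filter, and their difference was in part a condition of being tested. Itga10 and Itgb8 are among the 12 called lower.

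**Figure D1:**
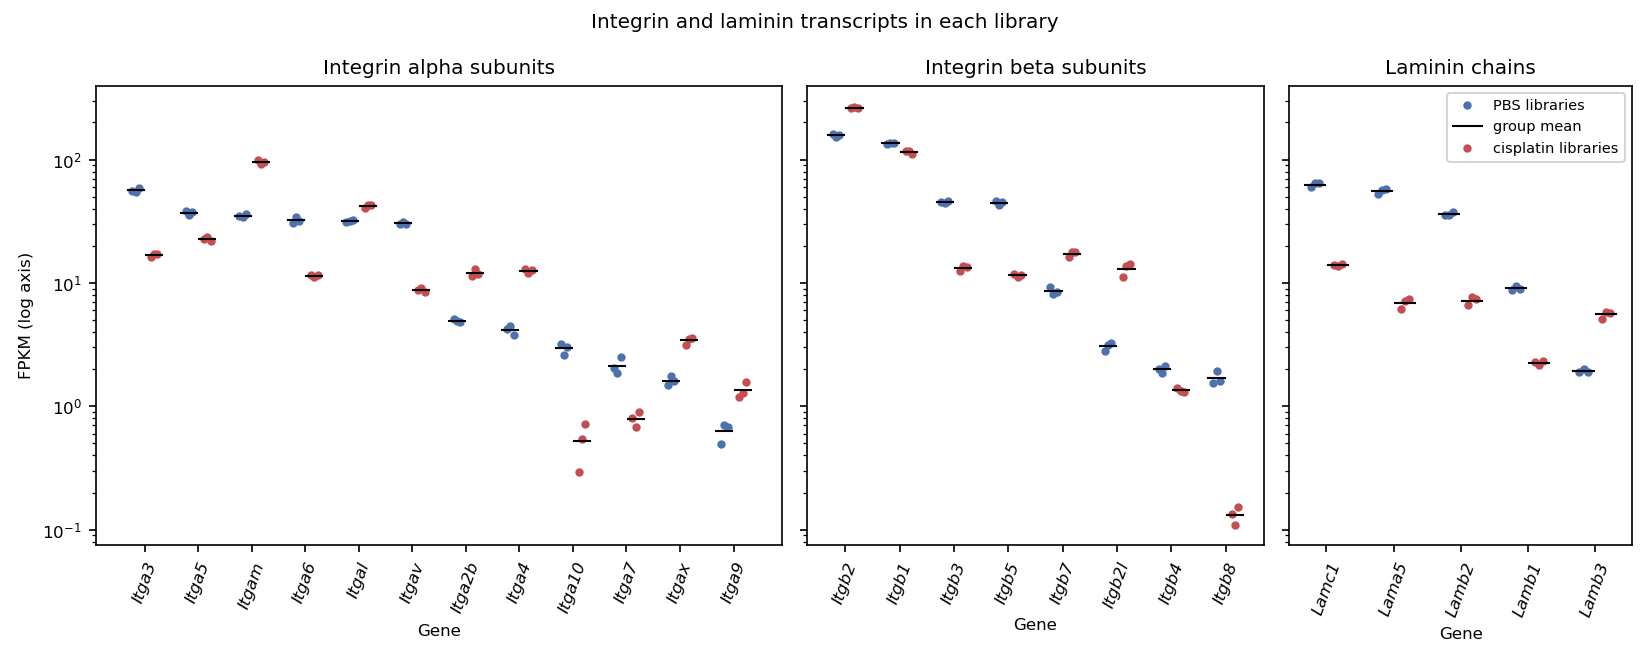
FPKM (log axis) of 25 of the tested genes in each of the 3 PBS (blue) and 3 cisplatin (red) libraries, with black bars for group means and genes ordered by their PBS mean within each class. Points of a group lie close together for most genes, Itgb2 and Itgb1 are the highest of the receptor subunits in both groups, and Lamb3 is the laminin chain whose red points lie above the blue.

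The calls of the rises were lost in a scaling by Y-linked genes and kept in the other scalings tried between libraries. When libraries were scaled by 4 Y-linked genes (Uty, Kdm5d, Ddx3y, Eif2s3y), whose summed level was 19.5 to 22.7 FPKM with PBS and 41.6 to 42.8 FPKM with cisplatin, the median of all tested genes moved to -0.83. In that scaling 0 of the 26 were called higher and 15 were called lower, where 85 and 5181 of all tested genes were. The 5 called rises kept positive values of 0.26 to 0.93 there and lay 1.09 to 1.76 above the shifted median. Itgb2 and Itgal changed sign in it, and Itgb7, Itgax and Itga9 had values of 0.0019, 0.059 and 0.053. Itgb1, Itga5 and Itga7, not called with the deposited FPKM, were called lower in it with values of -1.23, -1.65 and -1.36. Directions are given below for the deposited FPKM, and shares within a class and ratios between partners, which no scaling of a library touches, are given after them.

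Among the leukocyte integrins, Itgam, which encodes CD11b (ENSMUSG00000030786, chromosome 7, 128062640 to 128118491), had 34.7, 34.3 and 35.9 FPKM in the PBS libraries and 98.6, 92.1 and 94.8 FPKM in the cisplatin libraries. All 3 cisplatin libraries lay above all 3 PBS libraries, with a gap far wider than the spread inside either group. The mean rose from 34.96 ± 0.87 to 95.2 ± 3.30 FPKM (mean ± SD, n = 3, with a log2 fold change of 1.42, SE 0.039 and adjusted p = 2.54e-07 by limma). Of the genes that its span overlaps in the table, Gm49368 had a mean below 1 FPKM in both groups.

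Its partner Itgb2 (CD18, ENSMUSG00000000290, chromosome 10, 77530252 to 77565708) was the most abundant of the 38 genes in both groups. It had 160.3, 152 and 158 FPKM in the PBS libraries and 264, 267 and 262 FPKM in the cisplatin libraries. The groups did not overlap, but the difference stayed under the threshold on its size, with a log2 fold change of 0.75 (SE 0.032 and adjusted p = 1.79e-06 by limma), and it was -0.24 with scaling by the Y-linked genes. The ratio of Itgam to Itgb2 went from 0.223 ± 0.0058 to 0.360 ± 0.015 (SD, n = 3 each).

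Itgal, the alpha subunit of LFA-1 (ENSMUSG00000030830, chromosome 7, 127296260 to 127335138), lies 727501 bases before Itgam on the same chromosome. It had 31.3, 31.8 and 32.5 FPKM in the PBS libraries and 40.2, 43.1 and 42.8 FPKM in the cisplatin libraries. The cisplatin libraries were the higher ones with no overlap and a log2 fold change of 0.39 (SE 0.040 and adjusted p = 0.000128 by limma), which was not called and was -0.58 with scaling by the Y-linked genes. Against Itgb2, the Itgal level went the other way from that of Itgam, with a ratio of 0.203 ± 0.0068 with PBS and 0.159 ± 0.0059 with cisplatin (SD, n = 3 each).

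The other beta-2 partners were scarce. Itgax (CD11c), whose gene begins 11055 bases past Itgam, had a mean of 1.62 ± 0.14 FPKM with PBS and 3.43 ± 0.24 FPKM with cisplatin (log2 fold change 0.76, not called, adjusted p = 0.000138 by limma). Itgad (CD11d), 3718 bases further on, had at most 13 reads in any library, and its groups overlapped.

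Itgb2l, a beta-2-like subunit gene known from myeloid precursors and neutrophils (ENSMUSG00000000157, chromosome 16, 96422288 to 96443619), had the largest rise of the 26. It had 2.82, 3.15 and 3.27 FPKM in the PBS libraries and 11.3, 13.6 and 14.1 FPKM in the cisplatin libraries. The lowest cisplatin library was above the highest PBS library, and the mean rose from 3.08 ± 0.23 to 13.00 ± 1.53 FPKM (mean ± SD, n = 3, with a log2 fold change of 1.78, SE 0.092 and adjusted p = 4.48e-06 by limma). The neutrophil and marrow precursor genes Mpo and Elane rose as well, by 2.63 and 1.86 on the log2 scale, while Ly6g had a log2 fold change of 0.13 that was not called, and the part of these cells in the result was not tested.

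Itga4, the alpha subunit of VLA-4, which binds VCAM-1 and fibronectin (ENSMUSG00000027009, chromosome 2, 79255426 to 79333123), had 4.23, 4.51 and 3.79 FPKM in the PBS libraries and 13.1, 11.98 and 12.7 FPKM in the cisplatin libraries. It was higher in all 3 cisplatin libraries and rose from 4.18 ± 0.36 to 12.6 ± 0.56 FPKM (mean ± SD, n = 3, with a log2 fold change of 1.39, SE 0.067 and adjusted p = 3.12e-06 by limma). The span of Itga4 overlaps that of Cerkl in the table, and Cerkl was below 1 FPKM in both group means.

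Itgb7, which pairs with Itga4 and Itgae on lymphocytes, had a mean of 8.64 ± 0.65 FPKM with PBS and 17.3 ± 1.02 FPKM with cisplatin, with no overlap between groups and a log2 fold change of 0.92 (adjusted p = 2.26e-05 by limma) that was not called. The ratio of Itga4 to Itgb7 was 0.485 ± 0.064 with PBS and 0.731 ± 0.074 with cisplatin (SD, n = 3 each). Itgae (CD103) was not tested, with 6 to 21 reads in the PBS libraries and 37 to 47 reads in the cisplatin libraries. The T and B lymphocyte list summed to 109 to 117 FPKM with PBS and 262 to 269 FPKM with cisplatin, and its part in the values of Itga4, Itgb7 and Itgal was not tested.

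The receptors for Arg-Gly-Asp ligands split by their alpha subunit. Itgav, the alpha-v subunit that pairs with 5 beta subunits (ENSMUSG00000027087, chromosome 2, 83724397 to 83806916), had 29.8, 31.00 and 30.2 FPKM in the PBS libraries and 8.74, 9.02 and 8.46 FPKM in the cisplatin libraries. The groups lay far apart, and the mean fell from 30.4 ± 0.59 to 8.74 ± 0.28 FPKM (mean ± SD, n = 3, with a log2 fold change of -1.69, SE 0.041 and adjusted p = 1.62e-07 by limma).

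Its partners Itgb3 and Itgb5 also fell. Itgb3 (ENSMUSG00000020689, chromosome 11, 104608000 to 104670476), the beta subunit shared by the vitronectin receptor and the platelet fibrinogen receptor, had 45.3, 44.7 and 46.5 FPKM in the PBS libraries and 12.5, 13.7 and 13.4 FPKM in the cisplatin libraries. Itgb5 (ENSMUSG00000022817, chromosome 16, 33829665 to 33949338), also a vitronectin receptor subunit, had 45.8, 43.2 and 45.3 FPKM in the PBS libraries and 11.7, 11.2 and 11.6 FPKM in the cisplatin libraries. All cisplatin libraries were below all PBS libraries for both genes. Itgb3 fell from 45.5 ± 0.92 to 13.2 ± 0.64 FPKM (mean ± SD, n = 3, with a log2 fold change of -1.71, SE 0.045 and adjusted p = 2.19e-07 by limma). Itgb5 fell from 44.8 ± 1.41 to 11.5 ± 0.28 FPKM (mean ± SD, n = 3, with a log2 fold change of -1.87, SE 0.040 and adjusted p = 1.08e-07 by limma), the largest fall of any integrin subunit on the log2(FPKM + 1) scale. Without the added 1, the mean FPKM of Itgb5 was 3.89-fold lower with cisplatin, against 5.69-fold for Itga10 and 12.9-fold for Itgb8, both of which are low genes. The ratio of Itgav to Itgb3 was 0.668 ± 0.023 with PBS and 0.663 ± 0.035 with cisplatin, a difference within the spread between libraries, and that of Itgav to Itgb5 was 0.679 ± 0.035 and 0.761 ± 0.040 (SD, n = 3 each). The ratio of Itgav to Itgb1, another of its partners, was 0.223 ± 0.0038 and 0.0760 ± 0.0012, and that to Itgb8 was 17.99 ± 1.76 and 67.6 ± 13.5.

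Itgb8, which with alpha-v binds latent TGF-beta (ENSMUSG00000025321, chromosome 12, 119158022 to 119238802), was low in both groups and had 1.55, 1.94 and 1.62 FPKM in the PBS libraries and 0.133, 0.110 and 0.153 FPKM in the cisplatin libraries. The cisplatin libraries were all near 0 and rested on at least 20 reads each, and the log2 fold change was -1.25 (SE 0.106 and adjusted p = 4.99e-05 by limma). Another alpha-v partner, Itgb6, an epithelial subunit, had at most 15 reads in any library.

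Itgb1, the beta subunit shared by most of the matrix receptors (ENSMUSG00000025809, chromosome 8, 128685654 to 128733200), had 134, 136 and 137 FPKM in the PBS libraries and 117, 118 and 110.1 FPKM in the cisplatin libraries. Its cisplatin libraries were lower with no overlap, but its log2 fold change of -0.24 (SE 0.036 and adjusted p = 0.000975 by limma) was small and not called. Itga5, its partner in the classical fibronectin receptor (ENSMUSG00000000555, chromosome 15, 103344286 to 103366763), had 38.5, 35.3 and 37.7 FPKM in the PBS libraries and 22.6, 23.5 and 21.9 FPKM in the cisplatin libraries. Again the groups did not overlap, and the log2 fold change was -0.69 (SE 0.047 and adjusted p = 1.63e-05 by limma), not called.

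Itga2b, the alpha-IIb subunit of platelets and megakaryocytes, also present on early blood progenitors (ENSMUSG00000034664, chromosome 11, 102453297 to 102470122), had 5.10, 4.89 and 4.85 FPKM in the PBS libraries and 11.4, 13.01 and 11.8 FPKM in the cisplatin libraries. It was higher in all 3 cisplatin libraries and rose from 4.94 ± 0.13 to 12.1 ± 0.83 FPKM (mean ± SD, n = 3, with a log2 fold change of 1.14, SE 0.059 and adjusted p = 4.57e-06 by limma). The ratio of Itga2b to Itgb3 went from 0.109 ± 0.0041 to 0.914 ± 0.036 (SD, n = 3 each). Of the platelet and megakaryocyte list, Pf4 and Ppbp rose, Gp1bb was at 0 in every library, Gp9 and Gp6 had group means below 1 FPKM, and Gp1ba had a log2 fold change of 0.05 that was not called. The list summed to 22.7 to 28.3 FPKM with PBS and 243 to 268 FPKM with cisplatin, and its part in the Itga2b value was not tested.

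**Figure D2:**
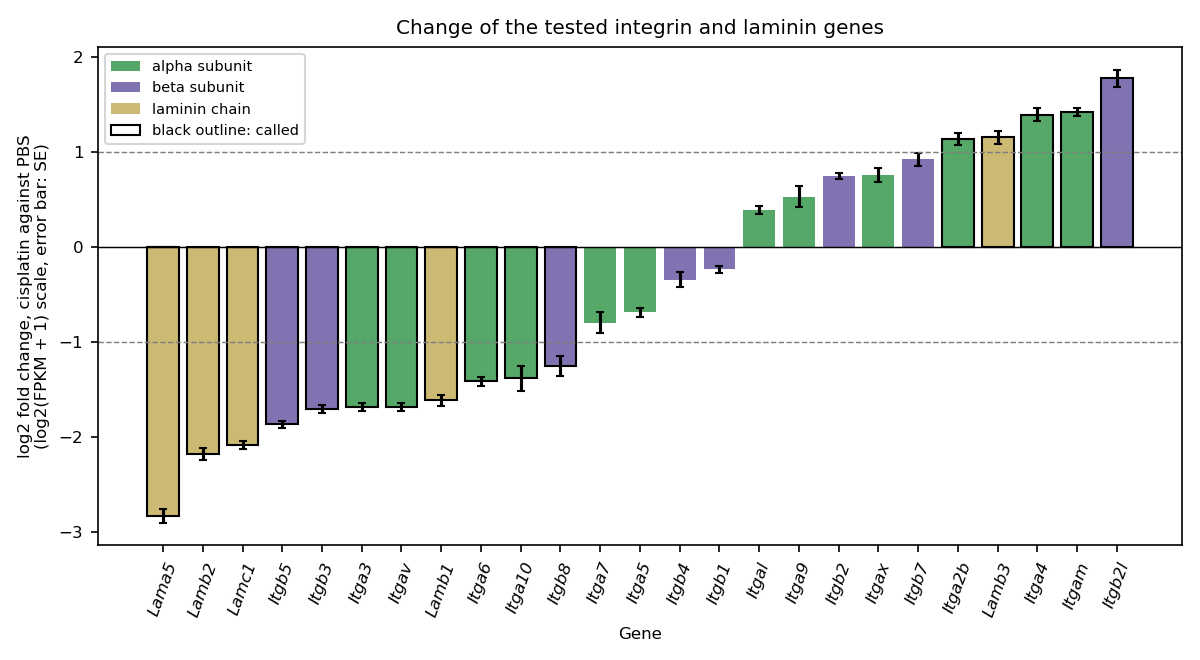
Log2 fold change of 25 of the tested genes, cisplatin against PBS on the log2(FPKM + 1) scale of the deposited values, with SE bars, colours for the 3 classes, outlines for called genes and dashed lines at a size of 1. Values run from -2.83 for Lama5 to 1.78 for Itgb2l, and Itgb2 (0.75) and Itgal (0.39) would lie below 0 with scaling by the Y-linked genes.

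The laminin-binding alpha subunits Itga3 and Itga6 fell. Itga3 (ENSMUSG00000001507, chromosome 11, 95044474 to 95076801), which with Itgb1 binds the laminins of epithelial basement membranes, was the most abundant alpha subunit in the PBS libraries and had 55.4, 54.99 and 59.2 FPKM in the PBS libraries and 16.2, 17.3 and 17.1 FPKM in the cisplatin libraries. Itga6 (ENSMUSG00000027111, chromosome 2, 71745616 to 71858416), which pairs with Itgb1 or with Itgb4, had 30.7, 34.1 and 31.8 FPKM in the PBS libraries and 11.6, 11.2 and 11.5 FPKM in the cisplatin libraries. For both genes every cisplatin library was below every PBS library. Itga3 fell from 56.5 ± 2.30 to 16.9 ± 0.58 FPKM (mean ± SD, n = 3, with a log2 fold change of -1.69, SE 0.045 and adjusted p = 2.28e-07 by limma), and Itga6 fell from 32.2 ± 1.74 to 11.4 ± 0.25 FPKM (mean ± SD, n = 3, with a log2 fold change of -1.41, SE 0.049 and adjusted p = 6.67e-07 by limma).

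Itga7, the laminin receptor best known from muscle, had a mean of 2.13 ± 0.34 FPKM with PBS and 0.796 ± 0.11 FPKM with cisplatin (log2 fold change -0.80, adjusted p = 0.000608 by limma) and was not called. Itgb4, the hemidesmosome subunit, had 1.99 ± 0.14 FPKM with PBS and 1.35 ± 0.058 FPKM with cisplatin (log2 fold change -0.35, adjusted p = 0.00673 by limma) and was not called either. Relative to Itgb1, the level of Itga3 was 0.416 ± 0.014 with PBS and 0.147 ± 0.0082 with cisplatin (SD, n = 3 each). The ratio of Itga6 to Itgb1 was 0.237 ± 0.012 and 0.0996 ± 0.0051.

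Of the 4 collagen receptor alpha subunits, Itga10 (ENSMUSG00000090210, chromosome 3, 96645584 to 96664519), known from cartilage, was tested. It had 3.19, 2.62 and 3.05 FPKM in the PBS libraries and 0.295, 0.540 and 0.724 FPKM in the cisplatin libraries. All cisplatin libraries were lower, and the log2 fold change was -1.39 (SE 0.129 and adjusted p = 7.91e-05 by limma). Itga1, Itga2 and Itga11 were not tested. Itga1 had 37 to 61 reads with PBS and 267 to 317 reads with cisplatin, Itga2 had 29 to 39 reads with PBS and 44 to 63 with cisplatin, and Itga11 had 22 reads in each PBS library and 3 to 15 with cisplatin. Itga9, whose ligands include tenascin and VCAM-1, had a mean of 0.627 ± 0.12 FPKM with PBS and 1.35 ± 0.21 FPKM with cisplatin and was not called (log2 fold change 0.53, adjusted p = 0.00516 by limma). Itga8, a subunit known from mesenchyme, was not tested, with 2 to 8 reads in the PBS libraries and 37 to 42 in the cisplatin libraries.

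The laminin chains had the lowest median of the 3 classes. Their summed level was 169 to 182 FPKM with PBS and 35.7 to 38.3 FPKM with cisplatin, a 4.71-fold difference in the means, while the summed alpha integrin subunits had 241 ± 3.63 FPKM with PBS and 230.2 ± 0.59 FPKM with cisplatin and the summed beta subunits 398 ± 6.03 and 436 ± 6.70 FPKM (SD, n = 3 each).

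Lama5 (ENSMUSG00000015647, chromosome 2, 180176373 to 180225859) made up 99.2% of the laminin alpha chain level with PBS and 98.7% with cisplatin, and it is an alpha chain that Itga3 and Itga6 receptors bind. It had 52.4, 56.3 and 57.4 FPKM in the PBS libraries and 6.13, 7.16 and 7.46 FPKM in the cisplatin libraries. No library of one group came near the other, and Lama5 fell from 55.3 ± 2.60 to 6.92 ± 0.70 FPKM (mean ± SD, n = 3, with a log2 fold change of -2.83, SE 0.073 and adjusted p = 2.05e-07 by limma), the largest fall of the 26 tested genes on the log2(FPKM + 1) scale.

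Of the gamma chains, Lamc1 (ENSMUSG00000026478, chromosome 1, 153218922 to 153332786), part of most laminins, was the most abundant laminin transcript in both groups and had 59.5, 64.1 and 64.8 FPKM in the PBS libraries and 13.95, 13.8 and 14.3 FPKM in the cisplatin libraries. It was lower in every cisplatin library and fell from 62.8 ± 2.91 to 14.01 ± 0.23 FPKM (mean ± SD, n = 3, with a log2 fold change of -2.09, SE 0.044 and adjusted p = 1.04e-07 by limma).

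The beta chains did not move together. Lamb2 (ENSMUSG00000052911, chromosome 9, 108479736 to 108490530) had 35.2, 35.3 and 37.8 FPKM in the PBS libraries and 6.57, 7.66 and 7.35 FPKM in the cisplatin libraries. Lamb1 (ENSMUSG00000002900, chromosome 12, 31265234 to 31329644) had 8.77, 9.41 and 8.88 FPKM in the PBS libraries and 2.27, 2.18 and 2.34 FPKM in the cisplatin libraries. Both were lower in all cisplatin libraries, Lamb2 with a log2 fold change of -2.18 (SE 0.062 and adjusted p = 2.85e-07) and Lamb1 with -1.62 (SE 0.055 and adjusted p = 6.38e-07, both by limma).

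Lamb3 (ENSMUSG00000026639, chromosome 1, 193207699 to 193343878), the beta chain of epithelial anchoring laminin that pairs with Lama3, had 1.91, 2.02 and 1.90 FPKM in the PBS libraries and 5.10, 5.84 and 5.73 FPKM in the cisplatin libraries. It was the laminin chain with higher cisplatin libraries, and it rose from 1.95 ± 0.065 to 5.56 ± 0.40 FPKM (mean ± SD, n = 3, with a log2 fold change of 1.15, SE 0.069 and adjusted p = 8.84e-06 by limma). It made up 4.13% ± 0.21 of the beta chain level with PBS and 37.0% ± 0.38 with cisplatin (SD, n = 3 each). Lama3, which was not tested, had 29 to 37 reads with PBS and 6 to 9 reads with cisplatin. The span of Lamb3 in the table encloses G0s2 on the opposite strand, which rose from 6.70 ± 0.52 to 41.2 ± 3.59 FPKM, and Gm37691 on the same strand, which rose from 8.22 ± 0.69 to 29.8 ± 1.72 FPKM (SD, n = 3 each). Whether counting used strand is not given in the sources used here, and strand could part Lamb3 from G0s2 but not from Gm37691. The part of these genes in the Lamb3 value was not tested.

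Lama1, Lama2, Lama4 and Lamc3 were close to 0 with cisplatin. Lama4 had 37 to 58 reads with PBS and 2 to 7 with cisplatin, while Lama1, Lama2 and Lamc3 had at most 5 reads in any library and their groups overlapped.

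Within each library, the makeup of the 3 classes differed between groups. Itgam made up 14.5% ± 0.17 of the summed alpha subunit FPKM with PBS and 41.3% ± 1.33 with cisplatin. Itga3 went from 23.5% ± 0.61, the largest share with PBS, to 7.33% ± 0.27, and Itgav from 12.6% ± 0.32 to 3.80% ± 0.13. Itgal held 13.2% ± 0.073 and 18.3% ± 0.73, so the pair of Itgam and Itgal formed the leading alpha subunits in the cisplatin libraries.

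Among the beta subunits, Itgb2 made up 39.4% ± 0.50 with PBS and 60.6% ± 0.27 with cisplatin, and Itgb1 34.1% ± 0.65 and 26.4% ± 0.71. Itgb3 and Itgb5 each held 11.4% and 11.2% with PBS and 3.03% and 2.64% with cisplatin. Among the laminin chains Lamc1 stood at 35.7% ± 0.50 and 37.5% ± 1.40, while Lama5 went from 31.5% ± 0.37 to 18.5% ± 1.20 (SD, n = 3 each throughout). These shares are descriptions and were not tested.

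**Figure D3:**
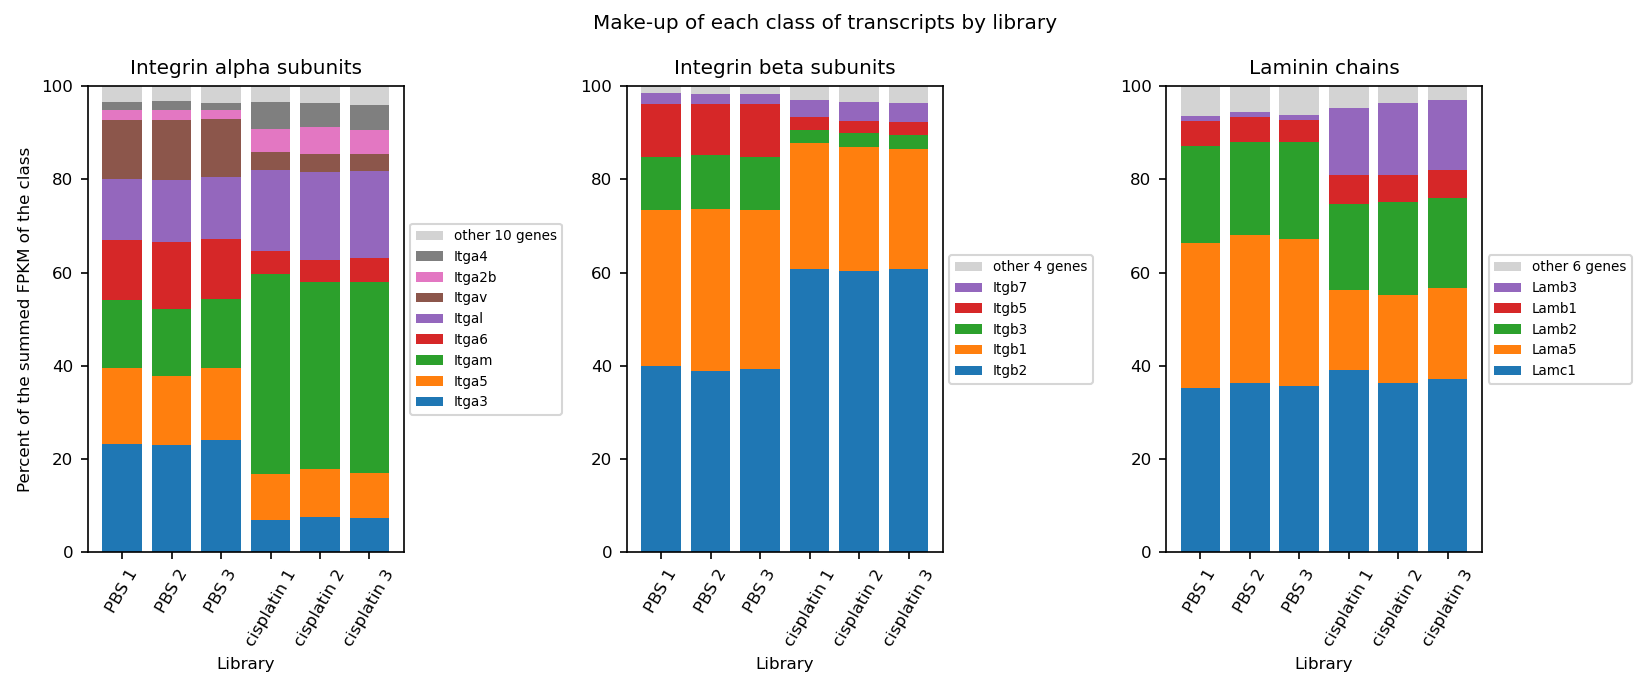
Percent of the summed FPKM of alpha subunits, beta subunits and laminin chains that each gene made up in each of the 6 libraries, with the remaining genes of a class pooled in grey. The libraries of a group look alike, and the bands of Itgam, Itgb2 and Lamb3 are wider in the cisplatin libraries than in the PBS libraries.

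The genes that work with integrins and laminins were then described from lists, whose counts stand against the 4.67% higher and 11.3% lower of all tested genes. Of 21 tested adhesion adaptors, which link integrins to actin, 2 rose, 8 fell and 11 were not called (median log2 fold change -0.36). Tln2, among those that fell, passed the filter through the PBS group alone, so its difference was in part a condition of being tested. Fermt3, the kindlin of blood cells, rose from 45.0 ± 4.50 to 98.9 ± 3.24 FPKM (log2 fold change 1.12), and Parvg, the parvin of blood cells, from 23.7 ± 0.92 to 49.7 ± 4.23 FPKM (1.03). Fermt2, the kindlin of most other tissues, fell from 13.3 ± 0.83 to 1.35 ± 0.043 FPKM (-2.60), and Bcar1, a docking protein of focal adhesions, from 16.1 ± 1.70 to 2.57 ± 0.26 FPKM (-2.26).

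Of 14 tested activators and inhibitors of integrins 1 rose, 2 fell and 11 were not called (median 0.13), shares close to those of all tested genes. Apbb1ip, which recruits talin in leukocytes, rose from 12.8 ± 0.29 to 28.2 ± 0.28 FPKM (1.08). Kank2 fell from 57.9 ± 1.52 to 6.47 ± 0.53 FPKM (-2.98) and Kank1 from 11.4 ± 0.48 to 1.13 ± 0.068 FPKM (-2.55), both talin-binding proteins at the rim of focal adhesions. Of 9 tetraspanins, the membrane partners of integrins, 0 rose and 2 fell (median -0.34). These were Cd81, which went from 95.9 ± 2.70 to 25.0 ± 0.87 FPKM (-1.90), and Cd151, the close partner of Itga3 and Itga6, which went from 56.1 ± 2.24 to 17.5 ± 1.47 FPKM (-1.63).

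Of 12 tested basement membrane partners and laminin receptors outside the integrin family, 0 rose, 11 fell and Rpsa was not called (median -2.44). Bcam, a receptor for the Lama5 chain, fell from 43.5 ± 1.98 to 2.54 ± 0.42 FPKM (-3.66). Hspg2, which encodes perlecan, fell from 109 ± 5.53 to 11.4 ± 1.40 FPKM (-3.16). Collagen IV chains were among those that fell, of which Col4a6 passed the filter through the PBS group alone.

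Of 16 tested ligands of integrins other than laminins, 3 rose, 8 fell and 5 were not called (median -0.66). Fbn1 and Ctgf, both among those that fell, passed the filter through the PBS group alone. Thbs1, which encodes thrombospondin-1, rose from 136 ± 4.43 to 929.6 ± 4.95 FPKM (2.76) and Icam2, a ligand of LFA-1, from 4.23 ± 0.52 to 11.6 ± 1.16 FPKM (1.27). Ctgf fell from 20.3 ± 1.28 to 0.469 ± 0.041 FPKM (-3.86) and F11r, which encodes the junctional protein JAM-A, from 116 ± 2.31 to 11.6 ± 1.24 FPKM (-3.22). For the partner and ligand genes named with values, these are means with SD (n = 3 each), and the largest adjusted p among them by limma was 2.73e-05. Rpsa had a log2 fold change of 0.10 and an adjusted p of 0.0326 by limma. With scaling by the Y-linked genes Fermt3, Parvg, Apbb1ip and Icam2 had log2 fold changes of 0.14, 0.064, 0.13 and 0.40 and were not called, while that of Thbs1 was 1.77. The median of the activators and inhibitors was -0.84, near the shifted median of all genes of -0.83. The medians of the adaptors, other ligands and tetraspanins were -1.28, -1.31 and -1.33, and that of the basement membrane list was -3.40. Since the scaling moved all genes down, a median below 0 in it is no result in itself.

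Cell type markers moved alongside these groups, and their counts too stand against the 4.67% higher and 11.3% lower of all tested genes. Of the 10 macrophage markers 3 rose, 0 fell and 7 were not called (median log2 fold change 0.90, which was -0.090 with scaling by the Y-linked genes), beside the Itgam value of 1.42 and the Itgb2 value of 0.75, the latter of which changes sign in that scaling as well. Lyz2, Tyrobp and Mertk were those that rose, and Mertk passed the filter through the cisplatin group alone. Of 7 tested ID8 and mesothelial or epithelial genes 0 rose, 5 fell and 2 were not called (median -2.07), beside the laminin chain median of -2.13. Krt19, Krt8, Krt18, Wt1 and Upk3b fell, while Krt7, Epcam and Muc16 were near 0 in both groups. Msln and Cdh1, with log2 fold changes of -0.70 and 0.60, were not called. Fibroblast markers summed to 55.5 to 59.6 FPKM with PBS and 17.5 to 19.4 FPKM with cisplatin, with Col1a2 and Lum near 0, and 1 of the 2 tested fell. That was Dcn, which made up most of the sum, with means of 54.1 FPKM with PBS and 16.2 FPKM with cisplatin, while Col1a1 was not called. Endothelial markers summed to 10.9 to 11.5 and 13.8 to 14.6 FPKM, and 0 of the 2 tested were called. Of the dendritic list 3 of the 4 tested rose and Zbtb46 had a log2 fold change of -0.69 that was not called, and the list summed to 16.9 to 18.6 and 40.3 to 42.6 FPKM, beside Itgax. Flt3, which rose, passed the filter through the cisplatin group alone and Zbtb46 through the PBS group alone, so their difference was in part a condition of being tested. The part of any of these cell types in the integrin and laminin values was not tested.

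**Figure D4:**
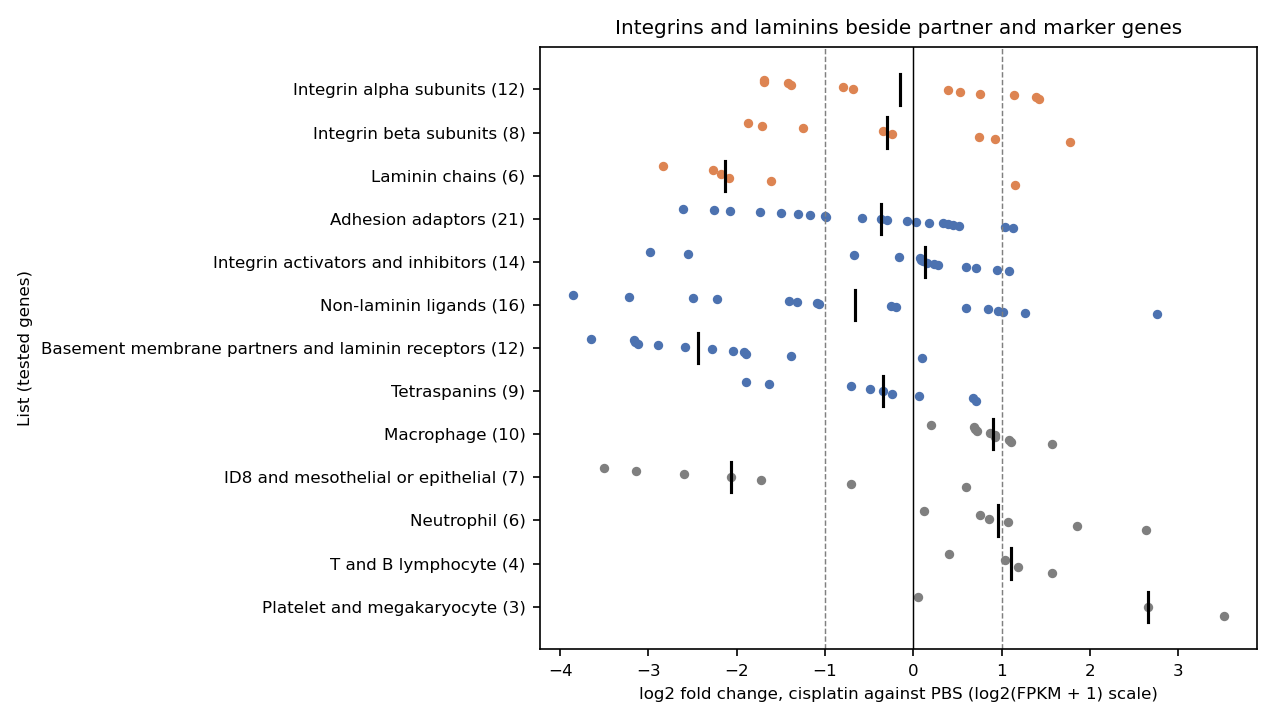
Log2 fold changes (cisplatin against PBS, log2(FPKM + 1) scale) of the tested integrin and laminin genes (orange), partner and ligand lists (blue) and marker lists (grey), 1 point per gene, with the median as a black bar and dashed lines at a size of 1. Laminin chains, basement membrane partners and the ID8 list have their medians below -2, and the macrophage, neutrophil, lymphocyte and platelet markers lie above 0, although scaling by the Y-linked genes would put Itgb2, Itgal, 7 of the 10 macrophage, 3 of the 6 neutrophil, 1 of the 4 lymphocyte and 1 of the 3 platelet markers below 0.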

How the data were processed

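The files were made by the authors, who deposited 1 table of FPKM values (fragments scaled by gene length and a read total) with a column per library. The submitters' processing notes name fastp, HISAT2 2.0.5, featureCounts 1.5.0-p3 and mm10, whereas the study's methods name LifeScope for alignment and counting. The notes were not reconciled. Coordinates are those of the table. Depth was recovered from the values: multiplied by gene length they were whole multiples of a fixed step (100% within 0.05 of a whole read, below 200 reads), so genes with few reads carry a large counting error.

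Values were tested as log2(FPKM + 1) over all 6 libraries with the group as the only term (limma 3.58.1, R 4.3.3, eBayes with a trend), for 13441 genes with at least 1 FPKM in at least 3 libraries, with Benjamini-Hochberg adjustment over all of them. This scale understates the change of low genes. P-values measure the spread between these libraries. The study's methods call the replicates biological without naming separate mice or cultures.

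The genes followed and the partner and marker lists were chosen with earlier results of these data known. Values in every library are given for each called gene reported and each tested gene with a mean of at least 20 FPKM in either group, and of each partner or ligand list the 2 largest called changes in each direction are named. G0s2 and Gm37691 and the single markers were named after their values were seen. Same-numbered libraries did not deviate together (correlations of -0.10, -0.086 and -0.024), so the fit has no replicate block. Some single-gene results are not reported here. The procedure was tested on simulated data. Alternatives covered the pseudocount, filter, scaling, test, threshold, gene set, replicate block and each library left out.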

Additional observations from a re-analysis of the deposited data

How the results depend on the processing

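The 5 higher and 12 lower integrin and laminin genes were called in the same numbers without the low-value filter, with median-of-ratios scaling, without a variance trend, among protein-coding genes, and without each library in turn. Of all genes, 622 to 671 were higher and 1513 to 1531 lower without each library, 649 and 1488 with median-of-ratios scaling, and 473 and 1358 among protein-coding genes. A fit with the replicate block gave 5 and 12, and 625 and 1515 of all genes, against 628 and 1514 without the block, and it changed no call among the 26. Genes called higher numbered 8 of the 26 by limma voom on recovered reads, 10 by the adjusted p alone, 3 by limma treat and 0 with scaling by the Y-linked genes. Of all genes, those higher numbered 1227, 4424, 240 and 85 in the same order, and 973 with a pseudocount of 0.1. Those lower numbered 4721 by the adjusted p alone, 982 by limma treat and 5181 with scaling by the Y-linked genes. In that scaling 1.61% of the calls were higher, against 29.3% with the deposited FPKM, and 2 signs reversed, with Itgb2 at -0.24 and Itgal at -0.58, which lay 0.59 and 0.25 above the shifted median of all genes. The cause of these shifts was not tested. Limma treat did not call Itga10, Itga2b, Itgb8 and Lamb3. A pseudocount of 0.1 gave 7 higher and 13 lower (973 and 1981 of all genes), and TPM rescaling 5 and 13 (874 and 1882 of all genes). Quantile normalisation moved the median of all genes by 0.10 and gave 6 higher and 12 lower (835 and 1290 of all genes). A scaling by the total of recovered reads, chosen after seeing the data, gave the same 2 numbers (764 and 1374 of all genes). With a filter at 5 FPKM, 20 of the 26 were tested, of which 5 were higher and 10 lower (443 and 1061 of all genes). Most untested genes rest on few reads per library, but Itga1 had up to 317 reads and stayed under the filter of 1 FPKM.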

Other observations

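When no filter on low values was applied, the 12 low integrin and laminin genes entered the fit as well. Itga1 had a log2 fold change of 0.74 (0.172 FPKM with PBS and 0.963 FPKM with cisplatin in the group means, adjusted p = 0.00135 by limma), Itga8 of 0.34 (0.0444 and 0.326 FPKM, adjusted p = 0.002) and Itgae of 0.42 (0.175 and 0.568 FPKM, adjusted p = 0.0137). Lama4 had -0.29 (0.249 and 0.0216 FPKM, adjusted p = 0.00454 by limma) and Lama3 -0.20 (0.197 and 0.0390 FPKM, adjusted p = 0.00601), and Itga11 -0.21 (0.265 and 0.0928 FPKM, adjusted p = 0.0425). The other 6 had an adjusted p of at least 0.05. All of these lay under the threshold on the size of a change, on a scale that understates low genes. In the table Itga1 overlaps Pelo on the same strand, which had a log2 fold change of -0.080 and was not called, and Gm49395, with 0.0359 FPKM with PBS and 0.233 FPKM with cisplatin in the group means. Itgae overlaps Haspin, which had a log2 fold change of 0.76 (2.78 and 5.39 FPKM, adjusted p = 0.000127 by limma) and was not called. The part of these genes in the Itga1 and Itgae values was not tested.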
